A study of Mus musculus with 15 samples.

Results

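The genes described here belong to fibroblast growth factor (FGF) signalling and its feedback onto the kinase ERK. They were taken by name: every mouse gene called Fgf plus a number, the receptor genes Fgfr1, Fgfr2, Fgfr3, Fgfr4 and Fgfrl1, the binding protein genes Fgfbp1 and Fgfbp3, the feedback genes Spry1, Spry2, Spry4, Spred1, Spred2 and Dusp6, and the transcription factor genes Etv1, Etv4 and Etv5. This gave 38 of the 36528 genes counted, of which 22 encode FGFs and 16 encode the other proteins. RNA was from skin tumour cells sorted out of basal cell carcinomas, cancers that depend on the Hedgehog pathway. The groups were 3 libraries at 14 days of vismodegib, 8 libraries at 6 days of vismodegib and 4 libraries labelled control, whose mice the design text calls untreated. Vismodegib inhibits SMO, the transducer of Hedgehog signals. Mice of every group, controls included, carried K14Cre-ER (an inducible Cre recombinase driven by a promoter of basal keratinocytes), the conditional alleles Ptch1fl/fl and p53fl/fl, and Lgr5GFP. The sources used here give neither the age of the mice nor the gate of the sort, and no label says that the libraries of a group were separate animals. All p-values therefore measure the spread between libraries, which may be partly technical.

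FGFs bind receptor tyrosine kinases on the cell surface with heparan sulfate as a cofactor, and the activated receptors signal through RAS to ERK. ERK activity induces its own brakes, among them the Sprouty and SPRED proteins, which act on the way to RAF, and the phosphatase DUSP6, which inactivates ERK. The ETS factors ETV4 and ETV5 are transcribed in response to FGF and ERK in many tissues, so that these transcripts are widely used as readouts of the pathway. In skin, FGFs pass between keratinocytes and dermis and help to time the hair cycle.

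The libraries held 27336935 to 256569828 counted reads. Levels are given as CPM, the reads of a gene relative to its library's TMM-adjusted size, and 3 reads in a library, the floor used here, equalled at most 0.11 CPM, for counting error only. Replicate numbers are not from the labels and follow the order of the samples within each group. Numbers in the submitters' sample identifiers fell into 3 ranges, and no label names them as batches. Range A (8 libraries) comprised replicates 1, 2 and 3 of the control group with replicates 1, 3, 4, 6 and 8 of the 6-day group. Range B (4 libraries) comprised replicates 2, 5 and 7 at 6 days with control replicate 4, and range C was made up of the 3 14-day libraries. The 14-day group and range C therefore cannot be told apart. Reads for basal keratinocyte genes were abundant in every library: the summed CPM of 9 such genes was 33463 to 45506 at 14 days, 31245 to 44442 at 6 days and 22431 to 37095 in controls. Markers of other cells were far lower, with melanocyte markers the highest at up to 861 CPM in all, and no counted marker was at 0 in every library. In bulk RNA, fewer cells of a type and less RNA per cell cannot be told apart.

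Levels spread widely over the set, with receptor genes and some feedback genes at the top and most FGF genes near 0. On the authors' size-factor-adjusted RPKM scale, which corrects for gene length and so allows genes to be compared, Fgfr1 had the highest mean over the 15 libraries, 129. Fgfr2 (89.4), Fgfbp1 (88.6), Fgfr3 (57.2), Dusp6 (52.7), Etv4 (33.9), Spry1 (24.4) and Spred1 (22.5) followed. The order differed between groups, and in controls Fgfr2 (mean 115) and Fgfbp1 (mean 131) had higher means than Fgfr1 (mean 89.7). Spry2 (4.35), Spred2 (3.63) and Spry4 (0.70) were far lower than Spry1 and Spred1. The spread between libraries was wide, and neighbours in this order overlapped in their ranges. The highest FGF was the intracellular Fgf11 at a mean RPKM of 4.55, and the highest secreted FGF was Fgf1 at 3.78. No other FGF averaged an RPKM of 1. Fgf4, Fgf6, Fgf15 and Fgf23 had no read in any library, and another 8 FGF genes (Fgf3, Fgf8, Fgf9, Fgf10, Fgf12, Fgf14, Fgf16 and Fgf20) had at most 71 reads each over the 15 libraries. These 12 genes failed the filter on low counts and were not tested, which left 10 of the 22 FGF genes and all 16 others. A gene that passed the filter through 1 group with higher counts had to differ between groups, so counts over the 26 tested genes describe those genes alone.

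**Figure D1:**
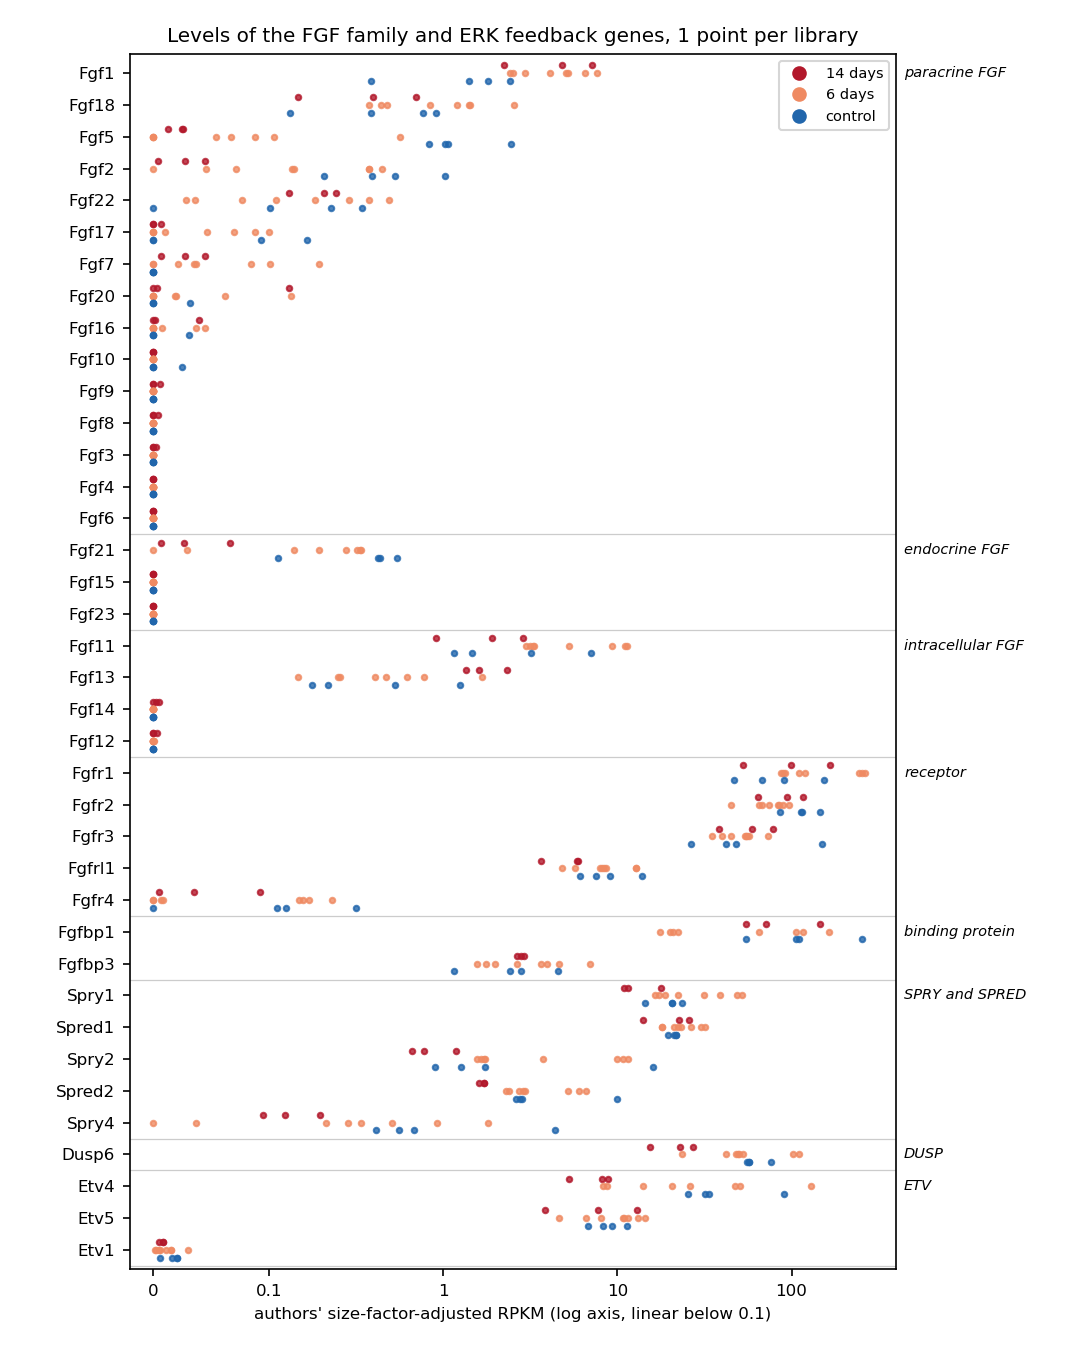
Size-factor-adjusted RPKM of each of the 38 genes (logarithmic axis, linear below 0.1), 1 point per library, with 14 days above 6 days above control in each row and genes ordered within their role. Fgfr1, Fgfr2, Fgfr3, Fgfbp1, Dusp6, Etv4, Spry1 and Spred1 lie farthest to the right, and among the FGF genes Fgf11 (mean 4.55) and Fgf1 (mean 3.78) are the highest.

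None of the 26 tested genes passed an adjusted p of 0.05 in edgeR's quasi-likelihood test over all 18751 tested genes, in any comparison. Of all tested genes 6.6% passed at 14 days against control, 3.89% at 14 days against 6 days and 1.26% at 6 days against control. These shares changed with the library left out. Without 14-day replicate 1, 2 or 3 the share at 14 days against control was 1.94, 2.92 or 2.41%. At 14 days against 6 days it was 0.0155% (3 genes), 3.37% or 0.222%. At 6 days against control it was 0.349% without control replicate 2, and 1.18, 0.46 or 1.44% without control replicate 1, 3 or 4. A smaller group also tends to give fewer calls, so a lower share alone does not show that the library left out carried the calls. The lowest adjusted p among the members was 0.0528 for Fgf5 at 14 days against control, 0.0535 for Dusp6 at 14 days against 6 days and 0.118 for Fgf1 at 6 days against control. Without adjustment, 13 members had a p under 0.05 at 14 days against control (3 higher and 10 lower), where 23.3% of all genes did (11.4% higher and 11.9% lower). At 14 days against 6 days it was 10 members (1 higher and 9 lower) beside 23.1% of all genes (11.1% higher and 12% lower). At 6 days against control it was 4 members (2 higher and 2 lower) beside 12.7% (6.27% higher and 6.41% lower). DESeq2 with its own size factors called 8 members at 14 days against control (13.7% of all genes), 7 at 14 days against 6 days (13.7%) and 3 at 6 days against control (4.11%). Among the 3 was Fgf7, which had no read in controls.

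Adding a term for range B to the edgeR fit raised the number of genes called in each comparison. With it 7 members passed at 14 days against control, where 17% of all genes did. Fgf1 rose and Fgf7 passed as higher, where 8.32% of all genes did, and Fgf2, Fgf5, Spred2, Dusp6 and Etv4 fell, where 8.72% did. Fgf7 had no read in controls and passed the filter on low counts through the treated libraries, so its call is no support for a change. At 14 days against 6 days 10.9% of all genes passed (5.33% higher and 5.53% lower), and 3 members fell, Spred2, Spry1 and Dusp6. At 6 days against control 4.62% of all genes passed (2.04% higher and 2.58% lower), and 1 member fell, Fgf5. The term is estimated from range B against range A within the control and 6-day groups. Range C is given no term of its own and is treated like range A, so the fit does not separate range C from 14 days. Results named below as passing with the range term are from that fit.

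Among the secreted FGFs, Fgf5 was lower in every treated library than in any control. Its protein ends the growth phase of the hair follicle, and its loss gives mice long hair (Entrez Gene 14176, chromosome 5, 98254184 to 98277033). The gene had 0.10, 0.10 and 0.05 CPM at 14 days, 0 (lowest), 0.23 (median) and 2.21 CPM (highest) at 6 days, and 9.13, 3.18, 4.03 and 3.84 CPM in controls. In reads these were 14, 13 and 6 at 14 days and 0 to 519 at 6 days, with 3 6-day libraries at 0, against 337, 107, 129 and 343 in controls. Groups did not overlap at 6 days against control for 2.69% of all tested genes (1.22% higher and 1.47% lower), and the members among them were Fgf1, higher, and Fgf5, lower. The log2 fold change was -5.91 (SE 1.72, adjusted p = 0.0528) at 14 days and -3.49 (SE 1.03, adjusted p = 0.126) at 6 days, both against control. With the range term Fgf5 fell in both, and the log2 change was -5.67 at 14 days (SE 1.43, adjusted p = 0.0151) and -4.69 at 6 days (SE 1.04, adjusted p = 0.0205). With range B left out, a setting added after the data were seen, it was -6.03 (adjusted p = 0.0152) and -5.43 (adjusted p = 0.0308), where 13% of all genes passed at 14 days and 2.59% at 6 days. Within range A alone the 6-day change was -5.39 (adjusted p = 0.0397, where 2.7% of all genes passed). Within range B, which has 1 control, it was -2.02. In range A alone and with range B left out, Fgf5 passed the filter on low counts through the controls, where it was high. The calls of those 2 fits are therefore no added support for a change. The 14-day levels were all under 0.11 CPM, the floor of the shallowest library, so the size of the 14-day fold is uncertain. The 519 reads were those of 6-day replicate 7. Without that library the 6-day change was -4.81 (adjusted p = 0.019) and the 14-day change was called too (adjusted p = 0.0222). Of the 15 fits that leave out a library, 4 called the 14-day change, with adjusted p between 0.0222 and 0.179 over all 15, and 1 called the 6-day change. The stretch before the transcription start of Fgf5 is shown because this gene had the lowest fold change of the set. It covers the 250 bases upstream of the RefSeq start on the plus strand of GRCm38.p6, chr5:98253934-98254183. Its capitals mark a match to the ETS motif CCGGAA on the opposite strand, 241 bases before the start.
Fgf5: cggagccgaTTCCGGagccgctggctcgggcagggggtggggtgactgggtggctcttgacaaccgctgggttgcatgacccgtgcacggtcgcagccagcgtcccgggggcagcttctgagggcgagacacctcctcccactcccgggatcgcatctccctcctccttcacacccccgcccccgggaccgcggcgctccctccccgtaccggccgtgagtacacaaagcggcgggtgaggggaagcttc
A window of this length held that motif on either strand in 12% of 32851 mouse promoters, so the match describes the letters and no more.

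Fgf1, which encodes an FGF that binds all the signalling receptors, had higher levels in most treated libraries (Entrez Gene 14164, GRCm38 chromosome 18, 38838672 to 38929470). It had 13.5, 44.0 and 29.4 CPM at 14 days, 14.8 (lowest), 28.3 (median) and 46.5 CPM (highest) at 6 days, and 14.3, 8.55, 2.31 and 10.7 CPM in controls. All 8 6-day libraries lay above every control, and 2 of 3 14-day libraries did. Against control, its log2 fold change was 1.69 (SE 0.54, adjusted p = 0.0748) at 14 days and 1.63 (SE 0.47, adjusted p = 0.118) at 6 days. The range term gave 1.81 at 14 days (SE 0.53, adjusted p = 0.0319) and 1.56 at 6 days (SE 0.46, adjusted p = 0.0684). With range B left out Fgf1 did not pass at 14 days, where 13% of all genes did, or at 6 days. None of the 15 fits that leave out a library called it. Adjusted p in them ranged from 0.0545 to 0.25 at 14 days and from 0.0967 to 0.276 at 6 days. Within range A the 6-day change was 1.51 and within range B 1.68. Fgf1 overlaps Arhgap26, and since strand handling is not known here, the reads of these genes cannot be told apart.

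Fgf7, the keratinocyte growth factor that mesenchymal cells make for the epithelial form of FGFR2, was read at low levels, and in treated libraries only (Entrez Gene 14178, chromosome 2, 126034658 to 126091185). It had 13, 3 and 17 reads at 14 days, 0 to 148 reads at 6 days with 6 of 8 libraries above 0, and no read in any of the 4 controls. The 148 reads, 6-day replicate 7, equalled 0.63 CPM. Both 6-day libraries without a read were of range A, the shallowest range. The highest 14-day level was 0.14 CPM, close to the floor of the shallower libraries, so no fold is given. The adjusted p was 0.124 at 14 days and 0.129 at 6 days, both against control, and 0.0497 and 0.0792 with the range term. Fgf7 overlaps Fam227b, and the reads of these genes cannot be told apart. Summed over 10 fibroblast and dermal papilla markers, the level was 5.88 to 9.07 CPM at 14 days, 4.14 to 20.9 CPM at 6 days and 10.8 to 22.4 CPM in controls. Of the 8 such markers tested, none passed in any comparison, and with the range term Col1a2 fell at 14 days against control. The markers did not move together. Dcn had 2.35 to 4.94 CPM at 14 days, 0.03 to 1.68 CPM at 6 days and 0.29 to 4.53 CPM in controls. The part of fibroblast RNA in the Fgf7 reads was not tested.

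Fgf2, the basic FGF, was low throughout and lowest at 14 days (Entrez Gene 14173, chromosome 3, 37348477 to 37410106). It had 0.007, 0.07 and 0.042 CPM at 14 days, 0 (lowest), 0.21 (median) and 0.68 CPM (highest) at 6 days, and 0.79, 0.59, 0.31 and 1.52 CPM in controls. In reads, 14 days had 1, 9 and 5 and controls had 29, 20, 10 and 136, so the 14-day libraries, each deeper than any control, all lay below every control. Fgf2 at 14 days against control had a log2 change of -4.31 (SE 1.31, adjusted p = 0.061), and -3.65 with the range term (SE 0.98, adjusted p = 0.0206). It passed in 1 of the 15 fits that leave out a library (without 6-day replicate 4), where adjusted p ranged from 0.0323 to 0.219. At 6 days against control it was -1.36 (SE 0.84, adjusted p = 0.587). Fgf2 shares its locus with Nudt6 and Fgf2os on the other strand, so these values are uncertain. Its 14-day levels were also all under 0.11 CPM, the floor of the shallowest library, which leaves the size of the 14-day fold uncertain.

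Fgf18, a paracrine FGF that in mouse skin is tied to the resting phase of the hair follicle, did not separate the groups. It had 0.30, 1.43 and 0.81 CPM at 14 days, 0.78 (lowest), 2.11 (median) and 5.24 CPM (highest) at 6 days, and 1.81, 0.27, 1.53 and 0.77 CPM in controls. Its change was -0.37 on the log2 scale (SE 0.76, adjusted p = 0.821) at 14 days and 1.03 (SE 0.64, adjusted p = 0.587) at 6 days against control. Fgf21, an endocrine FGF of metabolism made chiefly by liver, was read at a trace. It had 0.075, 0.031 and 0.008 CPM at 14 days, 0 (lowest), 0.27 (median) and 0.39 CPM (highest) at 6 days, and 0.60, 0.48, 0.12 and 0.48 CPM in controls. Each 14-day library lay below every control, and the log2 fold change was -3.40 (SE 1.20, adjusted p = 0.105). The 14-day levels were all under 0.11 CPM, the floor of the shallowest library, so the size of this fold is uncertain. Fgf17 and Fgf22 averaged 0.13 and 0.37 CPM over all libraries, and neither passed in any comparison.

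The intracellular FGFs are not secreted and bind voltage-gated sodium channels rather than FGF receptors. Fgf11 (Entrez Gene 14166, chromosome 11, 69796068 to 69802944) had 4.51, 14.3 and 9.51 CPM at 14 days, 15 (lowest), 21.4 (median) and 57.2 CPM (highest) at 6 days, and 5.53, 7.19, 15.5 and 34.2 CPM in controls. Its 14-day libraries all lay below its 6-day libraries, and the log2 change was -1.72 (SE 0.65, adjusted p = 0.138). That difference was -0.89 with the range term (SE 0.36, adjusted p = 0.125). Groups did not overlap at 14 days against 6 days for 11.7% of all genes (5.42% higher and 6.28% lower) and for 3 members, Fgf11, Spry2 and Spred2, all lower at 14 days. Against control, the 14-day change of Fgf11 was -0.73 (adjusted p = 0.562) and 0.00 without control 4, its highest control. Its 6-day change of 0.99 (SE 0.56, adjusted p = 0.521) was 1.72 without that control. Fgf13 (Entrez Gene 14168, chromosome X, 59062139 to 59585572) was higher at 14 days than in controls. It had 10.6, 7.42 and 6.22 CPM at 14 days, 0.68 (lowest), 1.99 (median) and 7.67 CPM (highest) at 6 days, and 2.36, 0.80, 5.62 and 0.97 CPM in controls. Each 14-day library was above each control, as for 11.7% of all genes. The log2 change was 1.73 (SE 0.78, adjusted p = 0.192), and against 6 days it was 1.62 (SE 0.64, adjusted p = 0.152). Against control Fgf13 passed neither with the range term nor with range B left out. None of the 15 fits that leave out a library called it against control (adjusted p between 0.0919 and 0.426). Mir504 and Gm36570 lie within Fgf13.

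**Figure D2:**
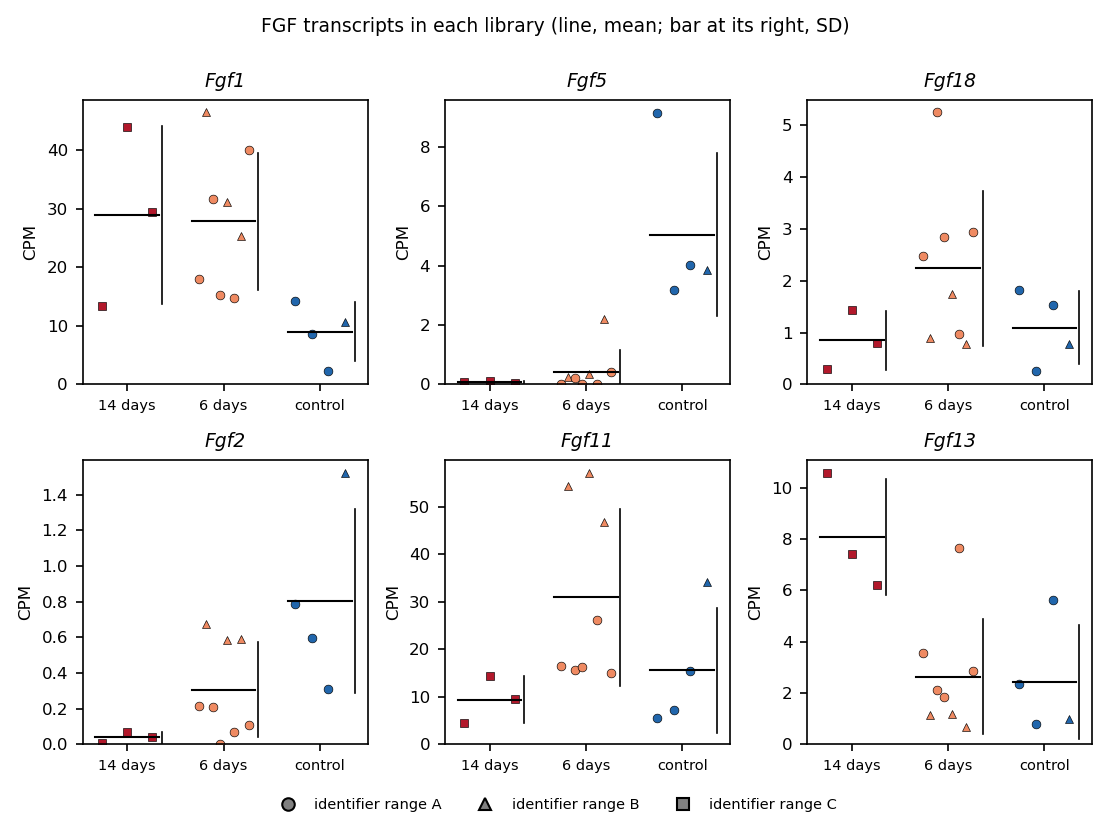
CPM of 6 FGF genes in each library, with 14 days left of 6 days left of control. Symbols give the identifier range, the horizontal line the mean and the vertical bar the SD. Every 6-day library exceeds every control for Fgf1, every treated library is below every control for Fgf5, and range B triangles are the highest points of Fgf11 at 6 days.

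The receptor genes Fgfr1, Fgfr2 and Fgfr3 were abundant in every group, and no change in them passed. Fgfr1 (Entrez Gene 14182, chromosome 8, 25518759 to 25575718) had 392, 1245 and 744 CPM at 14 days, 655 (lowest), 864 (median) and 1956 CPM (highest) at 6 days, and 339, 673, 495 and 1115 CPM in controls. The groups overlapped, and the log2 fold change was 0.28 (SE 0.52, adjusted p = 0.803) at 14 days and 0.85 (SE 0.44, adjusted p = 0.456) at 6 days against control. Within range A the 6-day change was 0.55 and within range B 0.77. Fgfr2 (Entrez Gene 14183, chromosome 7, 130162451 to 130266808), the receptor whose epithelial splice form binds FGF7 and FGF10, had 753, 423 and 615 CPM at 14 days, 297 (lowest), 513 (median) and 632 CPM (highest) at 6 days, and 541, 949, 735 and 724 CPM in controls. Its log2 fold change was -0.30 (SE 0.27, adjusted p = 0.535) at 14 days and -0.56 (SE 0.21, adjusted p = 0.236) at 6 days against control. Fgfr3 ranged from 253 to 505 CPM at 14 days, 225 to 483 CPM at 6 days and 167 to 949.7 CPM in controls, where control 4 was the highest. Fgfrl1, a receptor without a kinase domain, ranged from 11.5 to 19.1 CPM at 14 days, 15.4 to 41.7 CPM at 6 days and 18.8 to 42.8 CPM in controls (log2 fold change -0.79 at 14 days against control, SE 0.36, adjusted p = 0.196). Fgfr4 stayed at or below 1.24 CPM in every library.

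Fgfr1 made up a larger share of receptor transcripts at 6 days than in controls. As a share of the summed RPKM of Fgfr1, Fgfr2, Fgfr3 and Fgfr4 in each library, it was 21.4, 61.7 and 39.4% at 14 days, 37.3 (lowest), 51.7 (median) and 68.6% (highest) at 6 days, and 29.5, 31.8, 30.1 and 36.7% in controls. The 6-day libraries did not overlap the controls, within range A (37.3 to 58.3% against 29.5 to 31.8%) or range B (61.7 to 68.6% against 36.7%). The 14-day libraries lay on both sides of the controls. Fgfr2 took 46.9, 23.9 and 37.2% at 14 days, 17.1 (lowest), 27.7 (median) and 40.4% (highest) at 6 days, and 53.8, 51.2, 51.0 and 27.2% in controls. These shares are a description and were given no test, since they were looked at after the levels were known. Counts per gene do not show which splice form of a receptor was made.

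**Figure D3:**
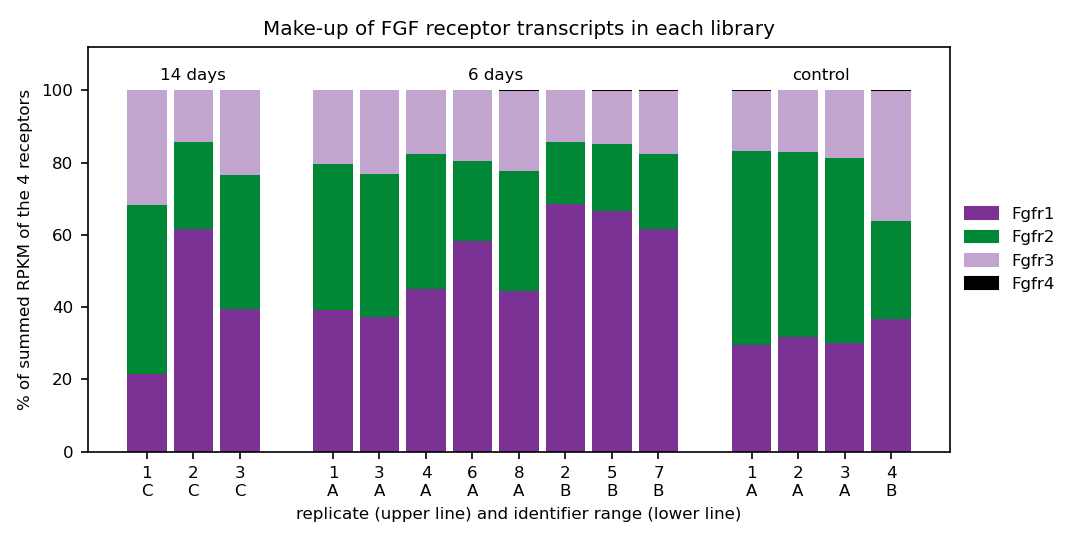
Make-up of the 4 signalling receptors' transcripts in each library, in percent of their summed RPKM, with 14 days left of 6 days left of control and libraries marked by replicate and identifier range. Fgfr1 takes 37.3 to 68.6% in 6-day libraries and 29.5 to 36.7% in controls.

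The binding proteins release FGFs from heparan sulfate in the matrix. Fgfbp1, known to be made by epithelial cells and squamous carcinomas, had 238, 91.0 and 117 CPM at 14 days, 29.1 (lowest), 72.2 (median) and 266 CPM (highest) at 6 days, and 400.3, 179, 169.5 and 87.6 CPM in controls. Its log2 fold change was -0.49 (SE 0.79, adjusted p = 0.759) at 14 days and -0.93 (SE 0.61, adjusted p = 0.621) at 6 days against control. Without control 1, its highest control, the 6-day value was -0.45 and the 14-day value 0.04. Fgfbp3 had 5.57, 5.94 and 6.14 CPM at 14 days, 3.29 (lowest), 6.63 (median) and 14.9 CPM (highest) at 6 days, and 9.38, 5.05, 5.81 and 2.38 CPM in controls. For Fgfbp3 it was 0.06 (SE 0.52, adjusted p = 0.961) at 14 days and 0.35 (SE 0.42, adjusted p = 0.866) at 6 days against control. Groups overlapped for both genes.

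Most feedback and ETV transcripts had lower levels at 14 days than in either other group. Of the 9 genes Dusp6, Spry1, Spry2, Spry4, Spred1, Spred2, Etv1, Etv4 and Etv5, 8 had a negative log2 fold change at 14 days against control (median -1.40, beside -0.02 over all tested genes). At 14 days against 6 days all 9 were negative (median -1.22, beside -0.06), and at 6 days against control 5 of 9 were (median 0.00, beside 0.03). The exception at 14 days against control was Spred1 at 0.02, whose sign turned with RLE or upper-quartile factors and in DESeq2. The size of these medians rested on range B. With the range term they were -0.81 against control and -0.59 against 6 days, and without control 4 the median against control was -0.62, over 8 genes of which 6 were negative. Without 14-day replicate 1, Etv5 (0.06) and Spred1 (0.02) were positive at 14 days against 6 days, and 7 of 9 were negative. These 3 comparisons share libraries, so their values are not independent of one another. At 14 days against control, groups did not overlap for 23.4% of all genes (11.7% higher and 11.7% lower) and for 9 of the 26 tested members. Fgf7 and Fgf13 were higher and Dusp6, Etv4, Spred2, Spry4, Fgf2, Fgf5 and Fgf21 lower. Fgf7 had no read in controls and passed the filter on low counts through the treated libraries, so its place among the 9 is no support for a change.

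Dusp6 encodes the cytoplasmic phosphatase that removes phosphate from ERK (Entrez Gene 67603, chromosome 10, 99263231 to 99267489). It had 51.5, 92.1 and 77.4 CPM at 14 days, 80.3 (lowest), 168 (median) and 371 CPM (highest) at 6 days, and 186, 186, 188 and 249.9 CPM in controls. Every 14-day library was below every control, and 1 of 8 6-day libraries, replicate 1, lay below the highest 14-day library. At 14 days the log2 fold change was -1.46 against control (SE 0.43, adjusted p = 0.0534) and -1.46 against 6 days (SE 0.40, adjusted p = 0.0535), while 6 days against control gave a value of 0.00 (SE 0.33). Dusp6 fell at 14 days with the range term, with log2 fold changes of -1.36 against control (SE 0.42, adjusted p = 0.0378) and -1.32 against 6 days (SE 0.39, adjusted p = 0.045). Of the 15 fits that leave out a library, 3 called Dusp6 against control and 12 did not, with adjusted p between 0.0335 and 0.224. Against 6 days 2 called it and 13 did not, with adjusted p between 0.0341 and 0.383. With range B left out it was -1.36 against control (adjusted p = 0.0666) and -1.32 against 6 days (adjusted p = 0.0724), where 7.37% of all genes passed at 14 days against 6 days. Gm34921 overlaps Dusp6.

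The SPRED proteins hold neurofibromin near RAS and so dampen ERK signalling. Spred2 (Entrez Gene 114716, chromosome 11, 19924442 to 20024026) had 18.3, 18.6 and 17.4 CPM at 14 days, 25.1 (lowest), 31.7 (median) and 72.9 CPM (highest) at 6 days, and 27.3, 30.2, 29.3 and 104.7 CPM in controls. All 3 14-day libraries lay below every other library. For Spred2 the log2 fold change was -1.40 (SE 0.51, adjusted p = 0.114) against control and -1.22 (SE 0.47, adjusted p = 0.141) against 6 days. Spred2 fell at 14 days with the range term, with smaller values and smaller errors, -0.81 against control (SE 0.17, adjusted p = 0.0054) and -0.59 against 6 days (SE 0.15, adjusted p = 0.0255). With range B left out they were -0.69 (adjusted p = 0.0128) and -0.65 (adjusted p = 0.0222), and without control 4 alone the change against control was -0.68 and did not pass. Spred1, its paralog, had 119, 221 and 192 CPM at 14 days, 154 (lowest), 194 (median) and 270.0 CPM (highest) at 6 days, and 160.4, 179, 181 and 179 CPM in controls. Its log2 fold change at 14 days was 0.02 (SE 0.23, adjusted p = 0.972) against control and -0.21 (SE 0.21, adjusted p = 0.593) against 6 days.

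The Sprouty proteins block signals from receptor tyrosine kinases to RAS and RAF. Spry1 (Entrez Gene 24063, chromosome 3, 37639947 to 37644599) had 36.4, 56.8 and 34.5 CPM at 14 days, 52.7 (lowest), 86.3 (median) and 165 CPM (highest) at 6 days, and 63.5, 45.6, 72.8 and 63.5 CPM in controls. At 6 days 4 of 8 libraries lay above every control, and 2 of 3 14-day libraries lay below every control. The log2 fold change was -1.20 at 14 days against 6 days (SE 0.37, adjusted p = 0.0805), -0.53 at 14 days against control (SE 0.40, adjusted p = 0.457) and 0.67 at 6 days against control (SE 0.32, adjusted p = 0.414). Spry1 fell at 14 days against 6 days with the range term (log2 -1.39, SE 0.33, adjusted p = 0.0161) and with range B left out (log2 -1.50, SE 0.32, adjusted p = 0.0247). Within range A the 6-day change was 0.98, and within range B it was -0.09.

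Spry2 was highest in the range B libraries of both groups that have them, and Spry4 in the range B control. Spry2 had 2.40, 4.36 and 2.83 CPM at 14 days, 5.78 (lowest), 10.1 (median) and 42.6 CPM (highest) at 6 days, and 4.50, 3.27, 6.25 and 56.8 CPM in controls. The 3 range B libraries at 6 days had 36.2, 42.6 and 40.3 CPM, the 5 others 5.78 to 13.8 CPM, and the 56.8 CPM was control 4, also of range B. Spry2 had a log2 change of -2.62 at 14 days against 6 days (SE 1.03, adjusted p = 0.15) and -1.12 with the range term (SE 0.36, adjusted p = 0.0593). Against control the 14-day change was -2.47 (SE 1.08, adjusted p = 0.18), -0.81 with the range term (adjusted p = 0.174) and -0.55 without control 4. Spry4 had 0.68, 1.09 and 0.52 CPM at 14 days, 0 (lowest), 1.72 (median) and 10.2 CPM (highest) at 6 days, and 3.63, 2.26, 3.03 and 23.4 CPM in controls. Its 14-day libraries were all below the controls, and the log2 change was -3.41 (SE 1.45, adjusted p = 0.168), or -2.09 with the range term (adjusted p = 0.169) and -1.97 without control 4. Its 6-day change against control of -1.48 (adjusted p = 0.626) was -0.04 without control 4.

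**Figure D4:**
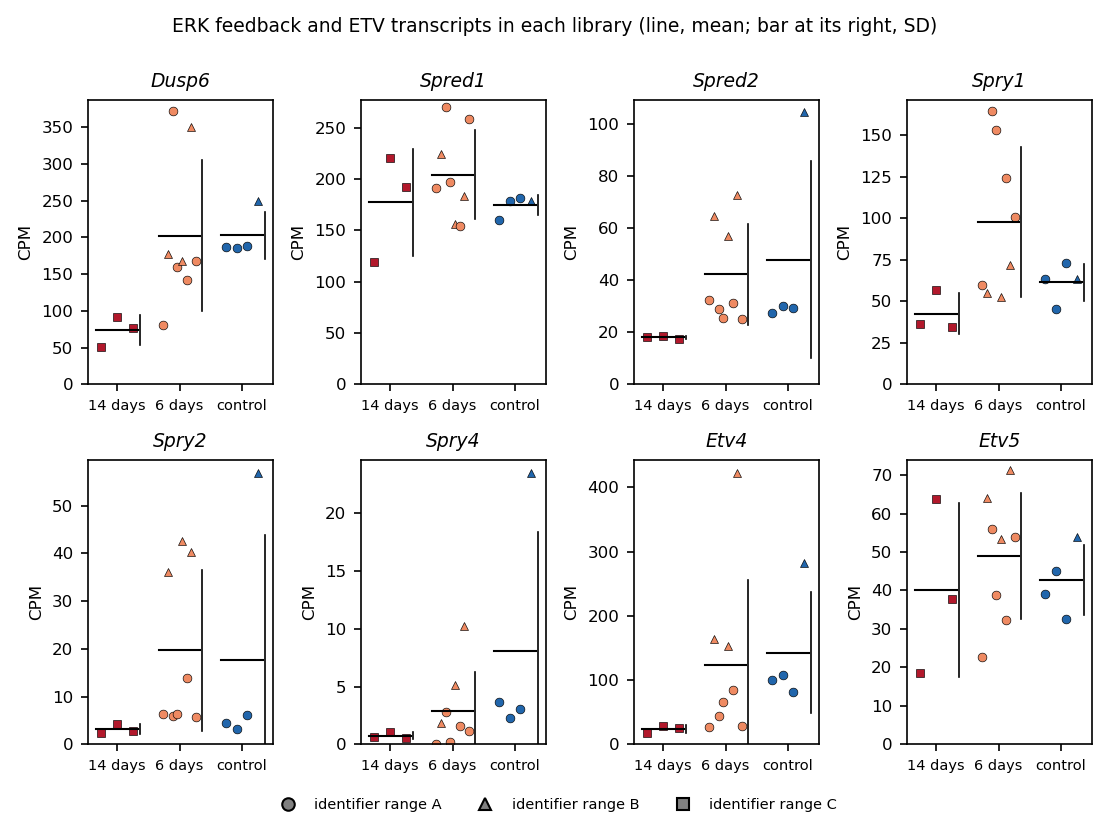
CPM of 8 feedback and ETV genes in each library, with 14 days left of 6 days left of control. Symbols give the identifier range, the horizontal line the mean and the vertical bar the SD. The 14-day squares lie below every control for Dusp6, Spred2, Spry4 and Etv4, and the range B triangles are the highest points of Spred2, Spry2 and Etv4.

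The 3 genes that fell at 14 days against 6 days with the range term, Dusp6, Spred2 and Spry1, are shown with the 250 bases before their RefSeq start on GRCm38.p6, all on the plus strand. They cover chr10:99262981-99263230 for Dusp6, chr11:19924192-19924441 for Spred2 and chr3:37639697-37639946 for Spry1. No capitals appear because none of the 3 windows held the ETS motif CCGGAA, the AP-1 motif TGACTCA or the GLI motif ACCACCC on either strand. Only these exact letters were searched for. Shorter stretches such as GGAA, which the Dusp6 window holds, were not counted.
Dusp6: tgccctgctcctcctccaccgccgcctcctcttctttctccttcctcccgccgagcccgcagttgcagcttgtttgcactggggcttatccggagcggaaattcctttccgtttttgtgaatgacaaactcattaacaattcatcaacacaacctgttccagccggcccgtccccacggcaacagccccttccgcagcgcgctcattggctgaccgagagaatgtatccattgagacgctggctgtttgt
Spred2: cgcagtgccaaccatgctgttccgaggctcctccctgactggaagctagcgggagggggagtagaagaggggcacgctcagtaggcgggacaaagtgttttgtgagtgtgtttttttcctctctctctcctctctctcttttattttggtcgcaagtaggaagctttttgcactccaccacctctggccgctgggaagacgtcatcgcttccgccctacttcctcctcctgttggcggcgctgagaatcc
Spry1: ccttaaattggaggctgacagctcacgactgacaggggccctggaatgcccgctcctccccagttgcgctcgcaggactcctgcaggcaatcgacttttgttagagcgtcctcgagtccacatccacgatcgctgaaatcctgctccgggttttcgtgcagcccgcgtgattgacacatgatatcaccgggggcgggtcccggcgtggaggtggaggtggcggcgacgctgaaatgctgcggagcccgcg
Over all 29 genes of the set with a RefSeq window (38 windows), the ETS motif was found in 4 (Fgf5, Fgf12, Fgfr4 and Fgfrl1), AP-1 in 1 (Fgf12) and GLI in 2 (Fgf14 and Fgf23). Of 32851 mouse promoter windows of this length, 12% held the ETS motif, 4.46% AP-1 and 3.92% GLI. A match describes the letters of a window and is not evidence of binding.

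Etv4 had the lowest log2 fold change of the ETV genes at 14 days (Entrez Gene 18612, chromosome 11, 101769747 to 101785310). It had 17.0, 28.9 and 26.2 CPM at 14 days, 27.1 (lowest), 75.0 (median) and 422 CPM (highest) at 6 days, and 99.9, 108, 80.8 and 283 CPM in controls. Every 14-day library lay below every control, and 2 of 8 6-day libraries were within the 14-day range. Its change at 14 days was -2.57 on the log2 scale against control (SE 0.88, adjusted p = 0.0911) and -2.36 against 6 days (SE 0.82, adjusted p = 0.108). Etv4 fell at 14 days against control with the range term (log2 -1.88, SE 0.45, adjusted p = 0.0111) and with range B left out (log2 -2.02, adjusted p = 0.0094). It passed against control in 1 of the 15 fits that leave out a library, that without 6-day replicate 7 with its 422 CPM, and adjusted p ranged from 0.0367 to 0.288. The change at 6 days was -0.21 (SE 0.64, adjusted p = 0.962), -0.96 within range A and -0.20 within range B. Etv5, its close relative, had 18.7, 63.8 and 37.9 CPM at 14 days, 22.8 (lowest), 53.6 (median) and 71.4 CPM (highest) at 6 days, and 39.0, 45.1, 32.6 and 54.0 CPM in controls. Its log2 fold change at 14 days was -0.09 (SE 0.40, adjusted p = 0.923) against control and -0.29 (SE 0.36, adjusted p = 0.669) against 6 days. Etv1 stayed at or below 0.42 CPM in every library.

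**Figure D5:**
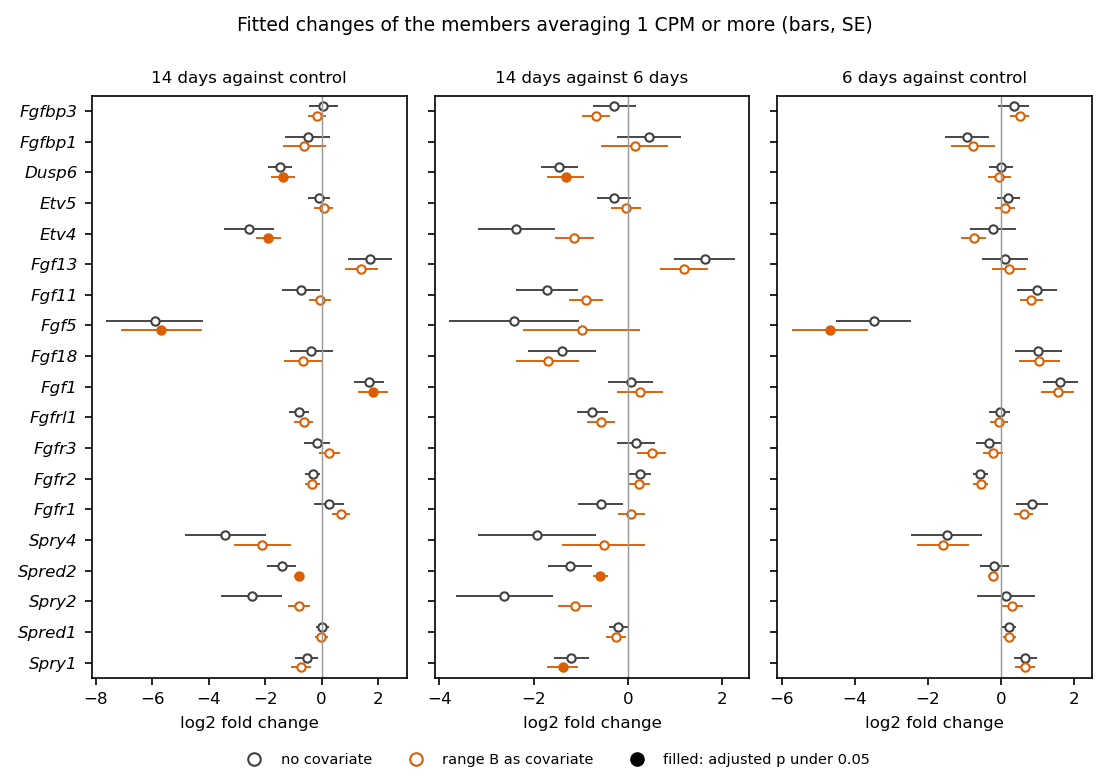
Log2 fold change with its SE for the 19 tested genes that averaged 1 CPM or more, without a covariate (grey) and with range B as a covariate (orange), at 14 days against control, 14 days against 6 days and 6 days against control. Filled points passed an adjusted p of 0.05, and all of them are from the fit with the range term. Of the feedback genes, Dusp6 and Spred2 passed in both 14-day comparisons and Spry1 against 6 days.

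Range B differed from range A for members about as often as for other genes. The term for range B against range A was read after the values were seen. In it 10 of 26 members passed, 8 higher and 2 lower, beside 43.1% of all genes (21.7% higher and 21.3% lower). Spry2 (log2 2.77, SE 0.29, adjusted p = 2.65e-06), Spry4 (2.52), Etv4 (2.10), Fgf2 (2.09), Fgf11 (1.65), Spred2 (1.39), Fgfr1 (1.30) and Fgfr3 (0.90) were higher in range B, and Fgf13 (-1.77) and Fgfbp3 (-1.35) were lower. Range B libraries were also deeper than those of range A. Whether the 6-day effect differed between ranges could hardly be seen with 1 control in range B. The interaction term was called for 0 of 24 members and for 10 of 17843 genes (edgeR), and 3 members (Fgfr3, Spred2 and Spry2) had an unadjusted p under 0.05, where 10.8% of all genes did.

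Other genes of the pathway are read against the shares over all genes given above, 6.6%, 3.89% and 1.26% without the range term. Among 22 genes that act downstream of the receptors (adaptors such as Frs2 and Grb2, the RAS genes, and RAF and MEK kinases among them), all were tested and none passed in any comparison. Their median log2 fold change was -0.09 at 14 days and -0.01 at 6 days against control, and 0.14 at 14 days against 6 days. Of 24 co-receptor and heparan sulfate genes, 21 were tested. Ndst2, a sulfotransferase gene of heparan sulfate, rose at 14 days against control, with 130, 107 and 114 CPM at 14 days and 59.2 to 90.9 CPM in the 4 controls (log2 0.60, SE 0.16, adjusted p = 0.0402). Flrt1, a transmembrane protein that binds FGF receptors, fell at 6 days, with 0.83 to 3.26 CPM at 6 days and 5.99 to 15 CPM in controls (log2 -2.49, SE 0.44, adjusted p = 0.0141). No other of the 21 was called. With the range term Flrt1 fell in both comparisons against control, Ndst2 rose in both 14-day comparisons and Ndst1 fell at 6 days. The same term called 2 to 3 of the 22 chain genes in each comparison, among them Ptpn11, higher, and Grb2, lower, in both 14-day comparisons, beside shares over all genes of 17% at 14 days against control, 10.9% at 14 days against 6 days and 4.62% at 6 days.

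Of 19 other ERK feedback and ERK-responsive genes, all tested, 1 passed. Phlda1 rose at 6 days, with 151 (lowest), 235 (median) and 399 CPM (highest) at 6 days against 50.8, 62.5, 114 and 74.1 CPM in controls (log2 1.72, SE 0.37, adjusted p = 0.0362), and did not pass with range B left out (adjusted p = 0.0596). At 14 days it had 46.3, 212 and 152 CPM, and the log2 fold change against control was 0.86 (adjusted p = 0.228). The median log2 fold change of the 19 was -0.32 at 14 days and 0.21 at 6 days against control, and -0.54 at 14 days against 6 days. With the range term 4 of the 19 fell at 14 days against control, where 8.72% of all genes fell: Dusp4 and Dusp10, which encode phosphatases of MAP kinases, Il17rd, which encodes an inhibitor of FGF signalling, and Ccnd1, which encodes cyclin D1. Fos fell at 14 days against 6 days, while at 6 days against control Ccnd1 and Dusp10 fell and Phlda1 rose.

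The sum of leukocyte markers, most of it from Cd74 and Csf1r, was higher in every 14-day library than in any 6-day library. The summed level of 7 counted leukocyte markers was 27.5 to 63.6 CPM at 14 days, 7.29 to 15.8 CPM at 6 days and 7.99 to 65.8 CPM in controls. Itgam passed at 14 days against control (1.64 to 2.80 CPM at 14 days, 0 to 0.02 CPM in controls). It passed the filter on low counts through the treated libraries, so its call is no support for a change. Csf1r passed at 14 days against 6 days (8.85 to 15 CPM at 14 days, 0 to 0.60 CPM at 6 days). Cd68 did not follow, with 4.14 to 4.50 CPM at 14 days, 0.83 to 8.55 CPM at 6 days and 3.21 to 7.66 CPM in controls, nor did Cd3e, at most 0.03 CPM at 14 days, 0.16 CPM at 6 days and 1.53 CPM in controls. Ptprc, which all leukocytes express, was at 0.46 to 0.78 CPM at 14 days, 0 to 0.29 CPM at 6 days and 0 to 1.72 CPM in controls. Of the basal keratinocyte genes, Cdh1, Itga6 and Krt15 rose at 14 days against control and Krt15 rose at 6 days, and Cdh1 and Itga6 rose at 14 days against 6 days. The other 6 gave no call, among them Krt17, which averaged 4635 CPM at 14 days, 4200.2 CPM at 6 days and 9105 CPM in controls. The 6 melanocyte markers summed to 47.5 to 363 CPM at 14 days, 51.8 to 861 CPM at 6 days and 34.6 to 679 CPM in controls, with no call. Endothelial markers (6 genes) summed to 2.22 to 3.74 CPM at 14 days, 1.80 to 4.81 CPM at 6 days and 2.70 to 4.43 CPM in controls. For 7 Schwann, pericyte and muscle markers the sum was 6.43 to 13.8 CPM at 14 days, 8.18 to 30.3 CPM at 6 days and 10.3 to 35.5 CPM in controls, and neither list gave a call. The part of these in the levels of Dusp6, Spred2, Etv4 and the FGF genes was not tested.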

How the data were processed

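Tumour-cell RNA of 15 libraries was analysed, grouped by the treatment label. Per the file headers, the authors' deposited counts are reads aligned uniquely to a gene, and their deposited RPKM values correct these reads for the length of the gene and a per-library size factor. GSNAP and GRCm38 come from the submitters' processing notes. Annotation, kit and strand handling are not stated in these sources, so reads of overlapping genes cannot be told apart. Symbols and coordinates are from a RefSeq table of GRCm38, which matched 31049 of 36528 Entrez identifiers and all 38 members, and promoter windows of 250 bases are from RefSeq on GRCm38.p6.

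The quasi-likelihood test of edgeR 4.0.16 (R 4.3.3) was run on the counts (low counts removed by filterByExpr with the groups, TMM scaling, all 15 libraries in 1 fit without covariates, 12 residual degrees of freedom, common biological coefficient of variation 0.579). Adjusted p is Benjamini-Hochberg over all 18751 tested genes, with calls at 0.05. The SE is the log2 fold change divided by the root of F. RPKM was used only to compare genes and for receptor shares. The scripts were tested on simulated data. In each of 105 pairs of libraries the counts differed beyond sampling noise, with a chi-square of at least 52.8 for each degree of freedom. Settings tried were other scaling factors, DESeq2 1.42.0, other low-count filters, 2 groups at a time, the identifier ranges and each library left out. Tables and figures were made with Python 3.11.15, pandas 2.3.3, numpy 2.4.6 and matplotlib 3.10.9.

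Genes with values for each library are those called without or with the range term, those averaging at least 1 CPM whose groups did not overlap, and the 2 with the highest mean RPKM in each role. Other genes are given as members of a list. The members and all gene lists were chosen with earlier results of these data known.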

Additional observations from a re-analysis of the deposited data

Results flagged for a closer look

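In 10 of 34 groups of named genes that were checked, 1 library stood far from the rest of its group. The rule marks about 5% of groups of independent, normally spread values. The groups checked share libraries and their spread was not shown to be normal, so the 10 of 34 cannot be measured against that 5%. Of the 10, 5 were the same library, control replicate 4, the only control of range B. It was the highest control for Dusp6 (249.9 CPM), Etv4 (283 CPM), Spred2 (104.7 CPM), Spry2 (56.8 CPM) and Spry4 (23.4 CPM).

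At 6 days, replicate 7, also of range B, was the highest for Etv4 (422.4 CPM) and Fgf5 (2.21 CPM), and replicate 6 was the highest for Fgf13 (7.67 CPM). Control replicate 1 was the highest control for Fgf5 (9.13 CPM) and the lowest for Spred1 (160.4 CPM). Of the genes flagged for control replicate 4, Etv4, Spred2, Spry2 and Spry4 passed as higher in range B in the fit with the range term, and Dusp6 did not.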

How the results depend on the processing

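The count of members called, 0 of 26 in each comparison, depended on the setting. At 14 days against control it was 8 with DESeq2, 7 with the range term, 4 with range B left out (a setting added after the data were seen), 3 with these 2 groups only (Fgf5, Etv4 and Dusp6, beside 1.96% of all genes), 2 with genes at 1 CPM or more in 3 libraries (Fgf5 and Dusp6, beside 8.27%) and 1 with RLE factors (Dusp6, beside 6.48%). At 14 days against 6 days it was 7 with DESeq2, 3 with the range term, 2 with range B left out and 1 with the filter of 1 CPM (Dusp6, beside 4.9%). At 6 days against control it was 3 with DESeq2 and 1 with the range term, in range A only and with range B left out. Upper-quartile factors, no filter and range B only gave 0. Fgf7, which had no read in controls, is among the 7 with the range term at 14 days against control and the 3 with DESeq2 at 6 days. The member called at 6 days in range A only and with range B left out was Fgf5. In both settings it passed the filter on low counts through the controls, where it was high.

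Leaving out each library in turn gave 0 to 3 calls at 14 days against control (1.94 to 7.26% of all genes), 0 to 1 at 14 days against 6 days (0.0155 to 6.12%) and 0 to 1 at 6 days against control (0.349 to 1.66%), and the genes called were Dusp6, Etv4, Fgf2 and Fgf5. Of the fold changes under these settings of the genes given values for each library, 1340 kept their side of the threshold and 56 crossed to called. Some of these genes were chosen because they were called with the range term. Their crossing under that setting was therefore fixed by the choice, and the 56 do not measure robustness. No member was called in the main fit, so no call could be lost or turned. A change of sign between fits without a call was counted as keeping its side, so the 1340 do not measure how stable the directions were. Without control 4 the 6-day change of Fgf2 was -0.84. Without 6-day replicate 7 the change at 14 days against 6 days was -1.12 for Fgf5 and -1.26 for Spry4. The cause of these shifts was not tested. The 14-day values rest on 3 libraries of 1 identifier range, and in the shallowest libraries genes under 0.11 CPM are not told from 0. No paired analysis was possible because the treatment labels do not match libraries of different groups to one another. The replicate numbers used here follow sample order and pair nothing.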
